A study of Mus musculus with 12 samples.

Results

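The Myc, Max and Mxd network is a family of transcription factors of the basic helix-loop-helix leucine zipper type that bind DNA as dimers. Its members were taken from the deposited table by gene symbol alone, where they are listed in capitals as MYC, MAX, MXD1, MXD3, MXD4, MXI1, MNT, MLX, MLXIP and MGA, and they are written in mouse style from here on. These are 10 of the 16425 genes of the table, and all 10 were among the 14440 genes with at least 0.5 CPM (reads per gene corrected for library size) in at least 3 libraries, the set on which tests were run.

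The cells were wild-type mouse embryonic fibroblasts, cells cultured from embryos. They had been infected with a single guide RNA directed at the site in Pvt1 that p53 binds, its p53 response element (called the RE guide here), or with a non-targeting guide (the control guide, sgTom). All libraries described here came from cells kept for 24 h in 0.5 µM doxorubicin, a drug that breaks DNA and activates p53, with 3 biological replicates per guide. The series holds 12 samples, and the 6 untreated samples, 3 for each guide, were not analysed here, so nothing can be said of the effect of doxorubicin itself. How the replicates were derived, whether each guide stands for a pool or a clone of cells, and the age of the embryos are not given in the sources used here.

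As background, Myc drives growth and proliferation genes when it is dimerized with Max and bound to E-box sequences. Max also pairs with the Mxd proteins, Mxi1 and Mnt, which recruit Sin3 and histone deacetylases and oppose Myc at the same sites, and with Mga, which belongs to a polycomb complex that silences germline genes. Mlx is the partner of the glucose-sensing factors Mlxip and Mlxipl and of some Mxd proteins. After DNA damage p53 is known to lower Myc RNA. Pvt1 is a long noncoding RNA gene downstream of Myc, and the study asked, by its title, whether p53 acts on Myc through it.

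The network reads the canonical E-box CACGTG, so promoters of its own members that carry this palindrome are shown here. A RefSeq promoter window, from 250 bases before to 50 bases after an annotated start in GRCm38.p6, was at hand for 9 of the 10 member genes. Myc is the member without a window, so its promoter was not searched. The 9 genes had 11 windows, and 4 of the 11 held the motif. The stretches run 5′ to 3′ on the gene's own strand, with up to 40 bases on each side of the motif, which is in capitals.
Max, chr12:76962224-76962291, minus strand: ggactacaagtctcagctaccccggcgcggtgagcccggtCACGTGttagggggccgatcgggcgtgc
Mlx, chr11:101087210-101087295, plus strand: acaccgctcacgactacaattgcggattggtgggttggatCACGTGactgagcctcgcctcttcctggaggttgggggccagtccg
Mnt, chr11:74830761-74830846, plus strand: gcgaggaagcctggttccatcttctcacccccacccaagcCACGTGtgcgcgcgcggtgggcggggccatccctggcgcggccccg
Mxd4, chr5:34187884-34187960, minus strand: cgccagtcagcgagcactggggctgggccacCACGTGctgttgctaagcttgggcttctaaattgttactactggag
The first base of the motif lay 3 bases before the start in Max, 40 in Mlx, 123 in Mnt and 219 in Mxd4. Of all 32851 windows, 7.15% held CACGTG, and counted by gene the motif was in 4 of 9 members (44.4%) and in 8.09% of all genes with a window. Among the genes tested here that have a window, which are the expressed ones, the share was 11.6%. A match describes these letters only and shows no binding.

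The 6 libraries held 50091418 to 66132317 reads in genes. All 10 fibroblast markers were present, with a summed level of 37020 to 38810 CPM per library, most of it from Fn1 and Col1a1. With the RE guide 4 of the 10 lay higher and 6 lower. Of these 1, Pdgfra, was lower without overlap (36.3 against 30.4 CPM on average), as were 1.47% of all genes tested. None of the 10 passed limma with or without the replicate block described below. The macrophage markers (6 of 6 present, among them Lyz2 and Cd68) summed to 81.8 to 159 CPM with the control guide and 75.4 to 253 CPM with the RE guide, and both libraries of replicate 1 lay at the top. In bulk RNA a difference in the share of cells and a difference in RNA per cell cannot be told apart. Pvt1, the targeted gene, stood at 16.4, 11.7 and 12.1 CPM in control replicates 1, 2 and 3 and at 8.04, 5.93 and 5.40 CPM with the RE guide, lower without overlap between the groups.

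Among the 10 members, Myc was the one whose libraries did not overlap between the guides, at 1.599 times the control mean with the RE guide. It lies on chromosome 15 from 61985391 to 61990374 on the plus strand (mm10, GENCODE M21), upstream of Pvt1 on the same strand. Its level was 28.7, 27.0 and 35.6 CPM in control replicates 1, 2 and 3 and 43.5, 48.6 and 53.8 CPM with the RE guide. Every library with the RE guide lay above every control library, and the lowest of them, at 43.5 CPM, stood clear of the highest control, at 35.6 CPM. The means were 30.4 ± 4.55 and 48.6 ± 5.16 CPM (SD, n = 3 each). Groups without overlap, in either direction, were seen for 3.61% of the genes tested, and for 1 of the 10 members, Myc, which was higher with the RE guide as were 2.15% of all genes (1.47% were lower). The two-sided exact permutation test gave p = 0.1, the smallest that 3 against 3 libraries allow.

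Across all genes, limma on log2(CPM + 0.5) gave Myc a log2 fold change of 0.67 (SE 0.127), with a 95% interval of the ratio from 1.29 to 1.97. Its unadjusted p of 0.00149 ranked first of the 14440 genes, and its fold change ranked 3 by size, but the Benjamini-Hochberg adjusted p of this limma fit was 1. No gene passed that fit (0% of those tested), while 50 (0.346%) had an unadjusted p under 0.05, among them 1 member, Myc. The edgeR test on recovered reads called 0 genes (47, or 0.325%, at an unadjusted p under 0.05), and DESeq2 called 1 gene (0.00693%), not Myc, whose DESeq2 adjusted p was 0.0551. Libraries with equal replicate numbers deviated together, so the fit was repeated with the replicate number as a block, which compares the guides within replicate pairs. Myc rose in this blocked limma fit (adjusted p = 5.49e-04), with the same fold change, an SE of 0.0532 and an interval of the ratio from 1.47 to 1.73. The blocked fit called 5 genes, 0.0346% of those tested, and 1 of the 10 members, Myc. Without replicate 1, 2 or 3 it called 8, 160 and 9 genes (0.0554%, 1.11% and 0.0623%), Myc among them each time. Such fits have few libraries left, so their calls lean mostly on the variance shared across genes and are no separate evidence. The call of Myc was lost in blocked limma without a trend in the variance (adjusted p = 0.835), where 0 genes passed and 843 (5.84%) had an unadjusted p under 0.05. Myc was also called by blocked edgeR (adjusted p = 2.77e-04), 1 of 5 genes or 0.0346%, and by blocked DESeq2 (adjusted p = 4.55e-16), 1 of 6 genes or 0.0416%. In the authors' deposited table Myc has a log2 fold change of 0.68, a p-value of 2.72e-05 and a false discovery rate of 0.224. These p-values rest on the spread between these libraries together with variance shared across genes, also in the blocked fits of all 6 libraries.

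Within pairs the Myc ratio was 1.52 in replicate 1, 1.80 in replicate 2 and 1.51 in replicate 3. Replicate 2 held the lowest control library and the middle library of the RE guide. Replicate 3 had the highest Myc level under both guides. Without replicate 1, whose libraries held the most macrophage marker RNA, the log2 fold change of Myc in the blocked fit was 0.71. The values rest on 1583 to 3915 reads per library, so counting error is small beside these differences.

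**Figure D1:**
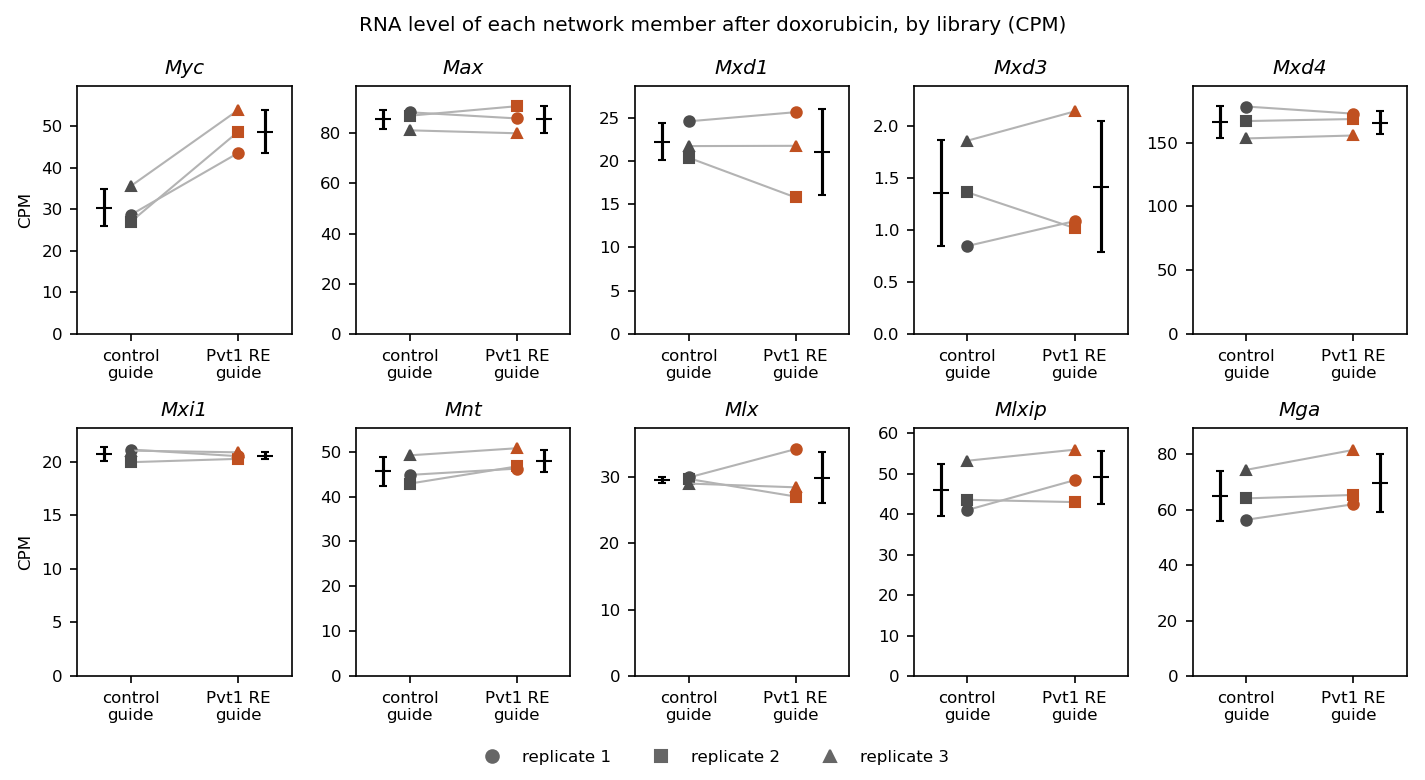
RNA level (CPM, axes from 0) of the 10 network members in each library, with symbols for the replicate number, gray lines joining libraries of equal number, and bars for the mean ± SD (n = 3 per guide). Myc is the member whose groups do not overlap, at 27.0 to 35.6 CPM with the control guide and 43.5 to 53.8 CPM with the RE guide.

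Max, the shared dimer partner, stood at about the same level under both guides. It measured 88.3, 86.9 and 81.1 CPM in control replicates 1, 2 and 3 and 85.9, 90.7 and 79.95 CPM with the RE guide. The groups overlapped fully, with the highest and the lowest value both under the RE guide. The ratio of the means was 1.001, and the 95% interval of the limma fit ran from 0.892 to 1.12 (0.947 to 1.055 in the blocked fit). A rise of Max of the size seen for Myc thus lies outside both intervals. Max had 5066 to 5815 reads per library, and replicate number held 88.4% of its sum of squares on the log2 scale.

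None of the 5 antagonists that pair with Max passed limma with or without the block. Mxd1, an antagonist induced in differentiating cells, measured 24.6, 20.4 and 21.7 CPM in control replicates 1, 2 and 3 and 25.6, 15.8 and 21.8 CPM with the RE guide. Its lower mean with the RE guide (21.1 against 22.2 CPM) went with replicate 2, the library with 15.8 CPM, while pairs 1 and 3 stood at ratios of 1.043 and 1.001. The limma interval of 0.692 to 1.26 was wide.

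Mxd3, an antagonist expressed mainly in dividing cells, was the least abundant member. It measured 0.848, 1.36 and 1.86 CPM in control replicates 1, 2 and 3 and 1.09, 1.02 and 2.15 CPM with the RE guide, from 49 to 156 reads. Replicate 3 was the highest under both guides. Its 95% interval in limma, from 0.627 to 1.68, is the widest of the 10 members and does not exclude a ratio such as that of Myc. In the blocked fit it ran from 0.839 to 1.25.

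Mxd4, the most abundant antagonist, measured 178, 167 and 153 CPM in control replicates 1, 2 and 3 and 173, 168 and 156 CPM with the RE guide. The order of the replicates was the same under both guides, and replicate number held 96.2% of its sum of squares. Mxi1, also called Mxd2, measured 21.1, 19.96 and 21.0 CPM in the controls and 20.5, 20.3 and 20.9 CPM with the RE guide. The 6 libraries of Mxi1 differed by at most 1.06 times, the narrowest spread of any member. The ratio of means was 0.997 for Mxd4 (limma interval 0.876 to 1.14) and 0.993 for Mxi1 (0.899 to 1.10).

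Mnt, an antagonist present in both resting and growing cells, measured 44.8, 42.9 and 49.2 CPM in control replicates 1, 2 and 3. With the RE guide it measured 46.2, 46.7 and 50.8 CPM. Each RE-guide library lay above its partner, by ratios of 1.03, 1.09 and 1.03, but the groups overlapped. The ratio of means was 1.05, the limma interval 0.929 to 1.19 and the blocked interval 0.989 to 1.11, with adjusted p = 0.758 in blocked limma.

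Mlx, which carries the parallel arm of the network, measured 29.9, 29.7 and 29.0 CPM in the controls and 34.2, 27.0 and 28.4 CPM with the RE guide, in replicate order. The RE-guide library of replicate 1 was the highest and that of replicate 2 the lowest of the 6, so the spread was wider under the RE guide (SD 3.79 against 0.478 CPM, n = 3 each). Mlxip, the glucose-sensing partner known as MondoA, measured 41.1, 43.6 and 53.2 CPM and 48.4, 43.0 and 56.0 CPM. Replicate 3 was the highest under both guides, and pair 2 stood at a ratio of 0.987 where pair 1 stood at 1.18. The limma intervals were 0.859 to 1.18 for Mlx and 0.857 to 1.33 for Mlxip.

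Mga, the largest member and a scaffold of its polycomb complex, measured 56.4, 64.0 and 74.3 CPM in control replicates 1, 2 and 3 and 61.9, 65.3 and 81.5 CPM with the RE guide. The libraries of replicate 3 were the highest of each group, the RE-guide library was above its partner in each pair (1.10, 1.02 and 1.10), and the groups overlapped. Its blocked interval, 1.011 to 1.133, lay just above 1, with an unadjusted p of 0.0229 and adjusted p = 0.688 in blocked limma. In the blocked fit 6.68% of all genes had an unadjusted p under 0.05.

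Read together, 6 of the 10 members had a log2 fold change above 0, against 49.7% of the genes tested. Myc, Mnt and Mga were higher in 3 of 3 pairs, which held for 14.4% of all genes, and 0 members were lower in 3 of 3 pairs, which also held for 14.4%. The 9 members other than Myc had a median log2 fold change of 0.0098, and that of all genes tested was −0.0004. In the blocked fit the lower end of the Myc interval, a ratio of 1.47, was above the upper ends of the other 9 intervals. The highest of those was 1.25, for Mxd3. The width of these blocked intervals draws on variance shared across genes. The pair 2 ratio of Myc, 1.80, lay above its own blocked interval, which ended at 1.73. Without the block the Myc interval began at 1.29 and those of Mxd3, Mlxip and Mga reached past it, to 1.68, 1.33 and 1.35.

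**Figure D2:**
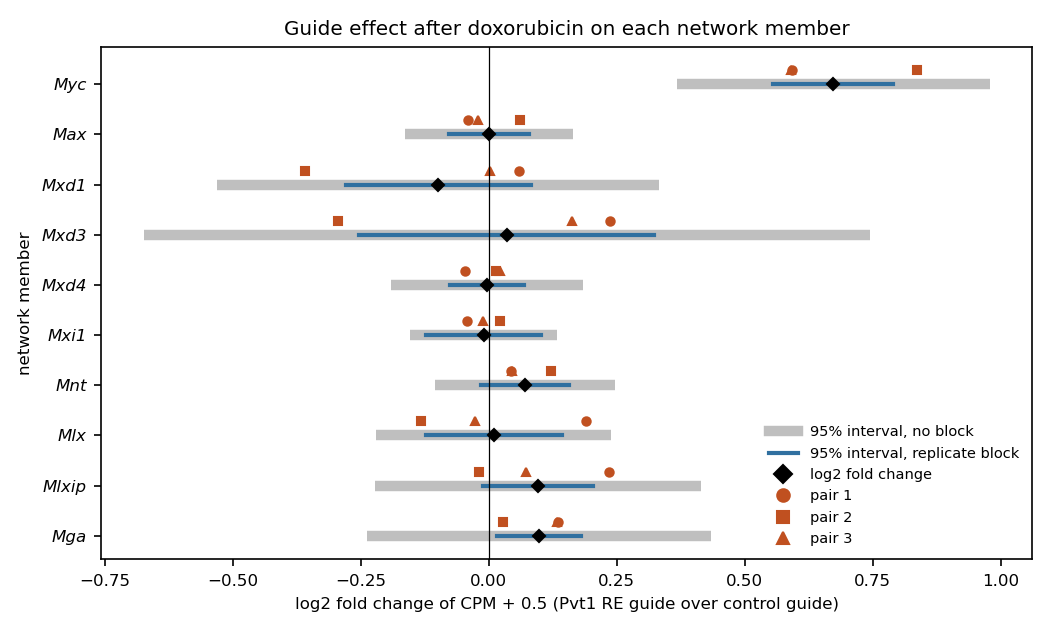
Log2 fold change of CPM + 0.5 (RE guide over control guide) of each network member, with the 95% interval of the limma fit without a block in gray and with the replicate block in blue, and the 3 within-pair values above each bar. Myc lies at 0.67, and its blocked interval is clear of those of the other members, which all include 0 but that of Mga.

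The spread of each member over the 6 libraries was split into parts that go with the guide, with the replicate number and with neither. The guide accounted for 83.8% of the sum of squares of Myc over the 6 libraries and the replicate number for 13.7%. For the other 9 members replicate number held 56.6% (Mlx) to 96.2% (Mxd4), and the guide at most 19.5%, in Mnt. Mlx had the largest residual share, 43.2%. The order of its replicates changed between the guides, as it did in Myc, Max, Mxd3, Mxi1, Mnt and Mlxip. Pvt1, for comparison, had 83.8% of its sum of squares with the guide.

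**Figure D3:**
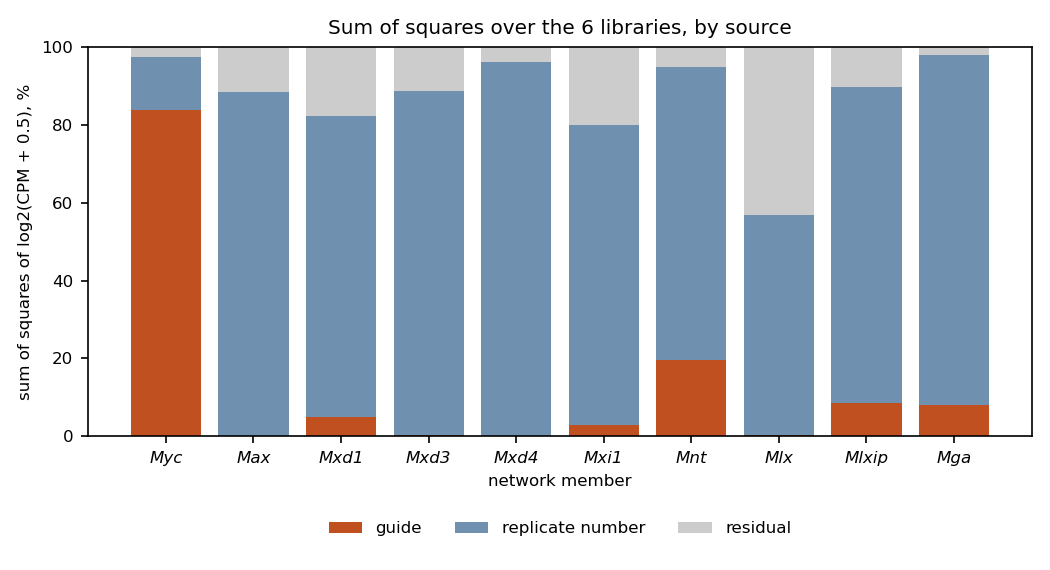
Share (%) of each member's sum of squares of log2(CPM + 0.5) over the 6 libraries that goes with the guide, the replicate number and the residual. The guide part is 83.8% for Myc and at most 19.5% for the other members.

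Levels can be compared between genes only per length, so CPM was divided by the exon length of each gene (the union of its annotated exons). Among the controls the order was Max (23.8 CPM per kb), Mxd4 (19.6), Mlx (14.8), Myc (11.2), Mnt (9.86), Mlxip (5.52), Mga (4.23), Mxd1 (3.14), Mxi1 (3.04) and Mxd3 (0.574). Control libraries overlapped between Myc and Mnt and between Mxd1 and Mxi1, and the lowest of Mlxip (4.93) was close to the highest of Mga (4.85). With the RE guide Myc, at 17.9 ± 1.90 CPM per kb (SD, n = 3), ranked 3, above the mean of Mlx at 14.9 ± 1.90 (SD, n = 3), although its libraries overlapped with those of Mlx and of Mxd4. Using the longest transcript in place of the union changed the order of the means for Mxd1, Mxi1 and Mga. It also changed the overlaps of Myc. With the RE guide Myc (18.6 to 23.0 CPM per kb) then lay clear of Mlx (13.7 to 17.4) and Mxd4 (33.6 to 37.3). In the controls Myc (11.6 to 15.2) then lay clear of Mnt (9.34 to 10.7) but overlapped with Mlx (14.7 to 15.2).

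The ratio of Myc to its partner Max, both per kb, was 0.430, 0.411 and 0.581 in control replicates 1, 2 and 3. With the RE guide it was 0.671, 0.709 and 0.892, so the groups did not overlap. The mean ratio was 1.598 times as high with the RE guide, and 1.55 to 1.64 times when any replicate pair was left out. The summed antagonists Mxd1, Mxd3, Mxd4, Mxi1 and Mnt over Max were 1.53, 1.46 and 1.58 in the controls and 1.57, 1.41 and 1.64 with the RE guide, with overlap. Myc over the summed antagonists was 0.280, 0.281 and 0.367 in the controls and 0.428, 0.503 and 0.545 with the RE guide, 1.59 times as high on average. With the length of the longest transcript the Myc to Max ratios were lower, at 0.297 on average in the controls and 0.475 with the RE guide, again 1.598 times as high, so the ratio itself depends on the length chosen. These are RNA ratios, and protein levels and dimers were not measured.

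**Figure D4:**
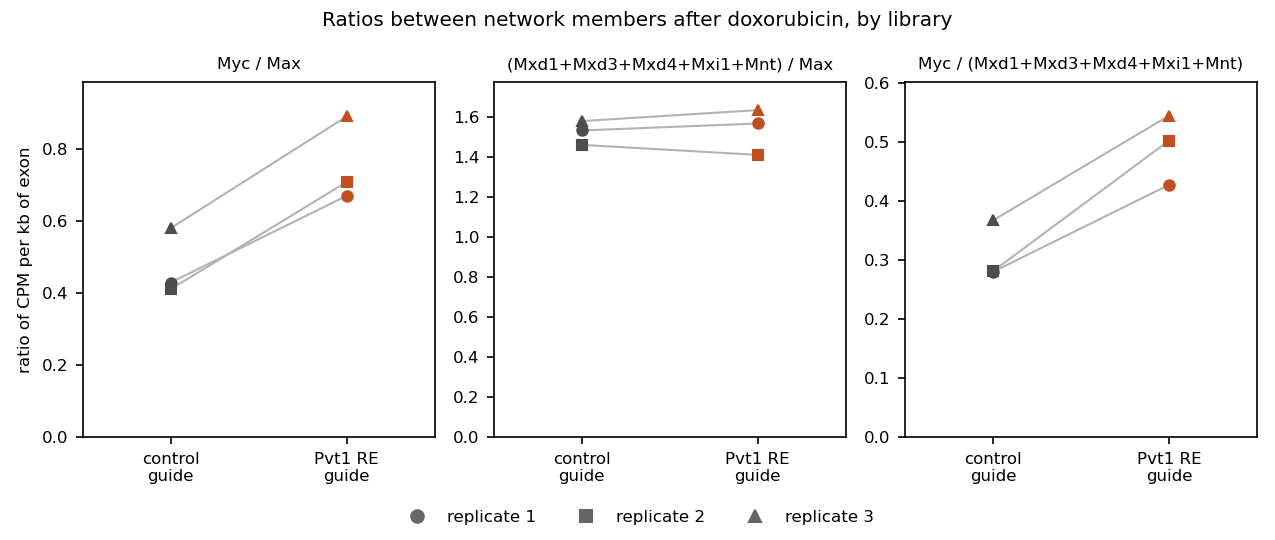
Ratios of levels per kb of exon between network members in each library (axes from 0), with lines joining libraries of equal replicate number. Myc over Max and Myc over the summed antagonists are higher in every RE-guide library than in any control library, while the antagonists over Max overlap between 1.41 and 1.64.

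In the same annotation Max lies on chromosome 12 from 76937269 to 76962201, Mxd1 on 6 from 86647042 to 86669161, Mxd3 on 13 from 55325168 to 55329823 and Mxd4 on 5 from 34173883 to 34187720. Mxi1 lies on 19 from 53310518 to 53375810, and Mnt (74830920 to 74845725) and Mlx (101087277 to 101092207) lie on 11. Mlxip is on 5 from 123394798 to 123457932 and Mga on 2 from 119897228 to 119969581, so that none but Myc lies on chromosome 15 with Pvt1. Some member values could hold reads of another gene. Exons of Mxd3, Mlx, Mxd4, Mxi1 and Mlxip overlap exons of a gene on the opposite strand (Prelid1, Psmc3ip, Gm42846, Gm10197 and Gm15747). The library kit marks strand, but the strand setting of the read counting is not given in the sources used here, so the levels of these 5 members are uncertain to that degree. Myc, Max, Mxd1, Mnt and Mga have no such exon overlap in GENCODE M21.

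The paralogs outside the 10 symbols were scarce. Mycn, the form of Myc typical of neural progenitors, averaged 1.14 ± 0.309 CPM in the controls and 0.975 ± 0.341 CPM with the RE guide (SD, n = 3 each). Mycl stood at 3.85 ± 1.03 and 3.52 ± 0.628 CPM (SD, n = 3 each). Mlxipl, the carbohydrate response factor ChREBP, did not reach the level set for testing, at 0.302 to 0.499 CPM. Mycn and Mycl lay lower with the RE guide on average, with limma intervals of 0.605 to 1.33 and 0.649 to 1.35.

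Genes that act with the network were read from lists of coactivators, turnover factors, corepressors and target genes. In each of these lists 0 genes passed limma with or without the block, so the counts below describe directions only. The first 2 genes named from each list are those with the smallest p in limma without the block. They were picked on these same data, so a lack of overlap in them follows in part from that choice. Of 20 coactivators and binding partners of Myc, 18 lay higher and 2 lower, with a median log2 fold change of 0.065 against −0.0004 for all genes tested. In this list 8 of 20 were higher and 1 lower in 3 of 3 pairs, each of which held for 14.4% of all genes. Without overlap 1 was higher and 0 lower, against 2.15% and 1.47% of all genes. Kat2a, a histone acetyltransferase recruited by Myc, stood at 39.0 ± 1.78 and 42.8 ± 1.86 CPM (SD, n = 3 each), without overlap between the guides. Mycbp, a Myc-binding protein, went the other way, at 12.6 ± 0.735 and 11.1 ± 1.11 CPM (SD, n = 3 each), lower in each pair.

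Factors that set the stability of the Myc protein were 13 higher and 4 lower of 17, with a median of 0.042. Without overlap 1 was higher and 0 lower, against 2.15% and 1.47% of all genes. Skp2, a ubiquitin ligase subunit that targets Myc, stood at 4.87 ± 0.417 and 5.68 ± 0.377 CPM (SD, n = 3 each), without overlap. Usp36, a nucleolar deubiquitinase of Myc, stood at 30.0 ± 2.02 and 33.3 ± 4.38 CPM (SD, n = 3 each), higher in each pair but overlapping. Fbxw7, the ligase subunit known for degrading phosphorylated Myc, stood at 30.9 and 31.0 CPM, named here after its values were seen.

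Of 19 members of the Sin3, histone deacetylase and NCoR corepressor complexes used by the Mxd proteins, 13 lay higher and 6 lower, with a median of 0.012. Without overlap 0 were higher and 1 lower, against 2.15% and 1.47% of all genes. Suds3, a Sin3 subunit, stood at 74.7 ± 2.22 and 71.4 ± 2.10 CPM (SD, n = 3 each), lower without overlap. Ing2, a chromatin reader of the same complex, stood at 7.75 ± 0.7502 and 7.11 ± 0.571 CPM (SD, n = 3 each), with overlap.

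The polycomb complex around Mga was split 5 higher to 6 lower of 11, with a median of −0.022. Without overlap 0 were higher and 1 lower, against 2.15% and 1.47% of all genes. Rnf2, its ubiquitin ligase, stood at 54.0 ± 1.42 and 50.1 ± 1.40 CPM (SD, n = 3 each), lower in each pair and without overlap. Ring1, its homolog, stood at 15.9 ± 0.696 and 16.8 ± 1.75 CPM (SD, n = 3 each), with overlap. Of the 18 listed germline genes that this complex silences, 6 were in the table. The 5 that passed the filter of 0.5 CPM had control means from 0.567 to 1.79 CPM. Ddx4, a germ cell helicase, stood at 0.567 and 0.449 CPM on average, from 18 to 44 reads. Its groups overlapped, and it was higher with the RE guide in 2 of 3 pairs, while pair 3 stood at a ratio of 0.380. Tdrd1, of the piRNA pathway, stood at 0.588 and 0.477 CPM, from 26 to 39 reads. Only its control libraries reached 0.5 CPM, so the filter itself favored a lower value with the RE guide, and no change is read from it.

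Textbook targets activated by Myc lay higher in 35 of 43 cases and lower in 8, with a median log2 fold change of 0.050 against −0.0004 for all genes tested. In this list 17 of 43 were higher and 4 lower in 3 of 3 pairs, each of which held for 14.4% of all genes tested. Without overlap 6 were higher and 1 lower, against 2.15% and 1.47% of all genes. Dkc1, which modifies ribosomal RNA, stood at 9.26, 9.96 and 11.2 CPM in the controls and 12.2, 12.0 and 12.7 CPM with the RE guide. Gart, of purine synthesis, stood at 63.8, 70.5 and 68.0 CPM and at 72.9, 74.3 and 78.6 CPM. Both had groups without overlap, with limma intervals of 1.03 to 1.40 and 1.007 to 1.237, and neither passed blocked limma (adjusted p = 0.57 and 0.557).

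Members of that list did not all lie on 1 side. Odc1, the polyamine enzyme that is a standard Myc target, had a mean of 348 CPM in the controls and 334 CPM with the RE guide but was higher in 2 of 3 pairs, and Nme2, Id2, Slc2a1 and Ptma lay lower in 3 of 3 pairs. These genes were named after their values were seen. Of the 37 activated targets with a promoter window, 8 held CACGTG, and those 8 all lay higher, with a median of 0.0545, while 21 of the 29 without it lay higher, with a median of 0.042. Among all genes tested with a window, 52.3% of the 1213 with the motif and 49.7% of the 9286 without it lay higher.

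Textbook genes repressed by Myc lay higher in 3 of 18 cases and lower in 15, with a median of −0.052. In 3 of 3 pairs 2 were lower and 1 higher, against 14.4% of all genes each way. The groups did not overlap for 1 lower and 0 higher genes of this list, against 1.47% and 2.15% of all genes. Tsc22d3, a glucocorticoid-induced factor, stood at 10.7 ± 1.13 and 9.78 ± 1.15 CPM, and Ndrg2, a growth suppressor, at 10.3 ± 3.41 and 8.64 ± 1.63 CPM (SD, n = 3 each), both with overlap. The cell cycle inhibitor Cdkn1a, which p53 induces and Myc represses, was 1 of the 3 that lay higher, at 1334 and 1395 CPM, and was named after its values were seen. Col1a2, Col3a1 and Pdgfrb of this list are also fibroblast markers. Without replicate 1, whose libraries held the most macrophage marker RNA, 6 of 18 repressed and 30 of 43 activated targets lay higher.

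Glucose-responsive genes of Mlx and its partners were split 7 higher to 4 lower of 11, with a median of 0.031. Elovl6, a fatty acid elongase, stood at 20.1 ± 3.73 and 22.2 ± 3.04 CPM, and Arrdc4, a regulator of glucose uptake, at 13.7 ± 0.284 and 13.2 ± 0.819 CPM (SD, n = 3 each), both with overlap. Txnip, the best known target of Mlxip, stood at 41.7 and 41.3 CPM, named after its values were seen.

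**Figure D5:**
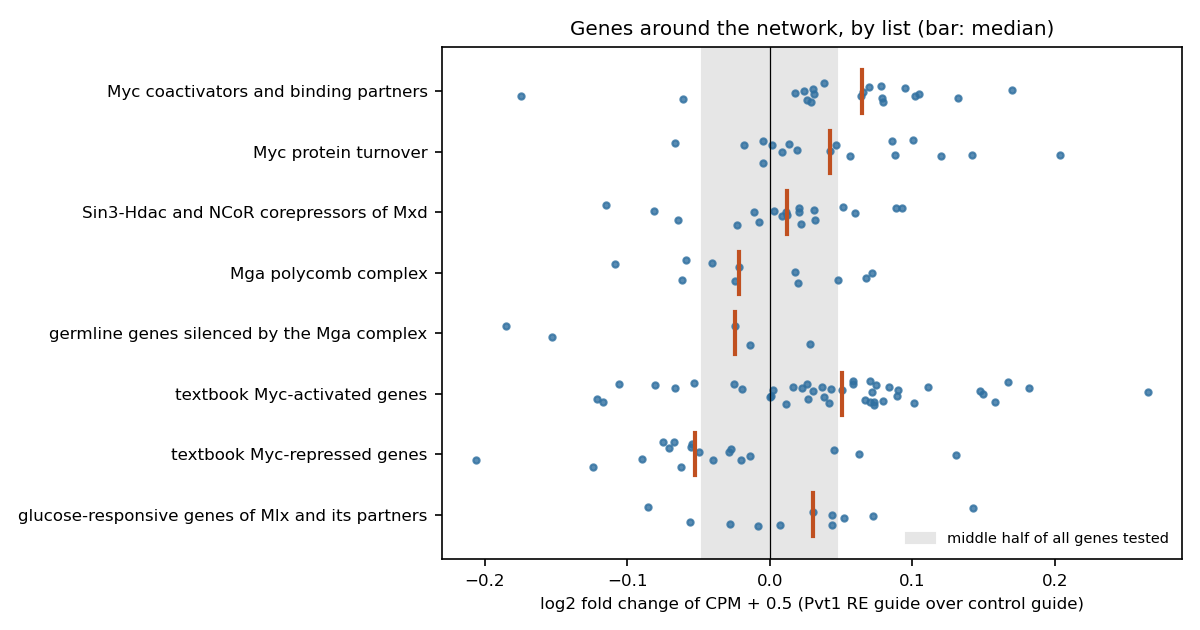
Log2 fold change (RE guide over control guide) of each tested gene in 8 lists around the network, with the median of each list as a bar and the interquartile range of all genes tested (−0.047 to 0.047) shaded. Medians lie between −0.052 and 0.065, against 0.67 for Myc, which is not plotted.

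The genes whose within-pair pattern was most like that of Myc were sought among the 10398 with a mean of at least 5 CPM, by the distance between their 3 within-pair log2 ratios and those of Myc. The closest was 2610203C20RIK (distance 0.579), with ratios of 1.13, 1.52 and 1.21 in replicates 1, 2 and 3. SUV420H2, a histone H4 methyltransferase gene, followed (0.729; 1.11, 1.44 and 1.09), and then Spaca6, a sperm membrane protein gene (0.739; 1.15, 1.38 and 1.07). In each, as in Myc, pair 2 had the highest ratio, which the choice by closeness favors. Each pair ratio was lower than that of Myc, whose log2 fold change of 0.67 was the highest of all genes tested. The groups overlapped in each of these genes. None passed limma with or without the block.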

How the data were processed

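RNA was measured by polyadenylated RNA sequencing with a kit that marks strand, per the labels' protocols. The submitters' processing notes name the build mm10 and, with no role or order, edgeR 3.22.3, HTSeq 0.6.1, TopHat2 2.0.14 and StringTie 1.2.4, and the strand setting is not given in the sources used here. The deposited expression values are CPM, which per the file headers come from edgeR. The authors also deposited a log2 fold change and an average log2 CPM, and a p-value and false discovery rate, for the same comparison. The 6 per-sample columns of pseudo-counts were not used. Entries for reads in no gene (ambiguous, 0.543% to 1.58% of a library, and outside genes, 8.06% to 8.94%) were removed.

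Dividing each CPM by the worth of 1 read gave whole reads within 0.01 for 100% of values in each library. The main test was limma 3.58.1 (R 4.3.3) with trend and robust variance on log2(CPM + 0.5), with Benjamini-Hochberg adjustment over all 14440 genes tested and a threshold of 0.05. A fold change is on the log2(CPM + 0.5) scale, which understates the change of low genes. Deviations from group means correlated, across genes, at 0.869, 0.739 and 0.817 between libraries of equal number and at most at 0.203 otherwise, so the numbers were taken to pair the libraries, and a fit with replicate number as a block is given where it changes a call. The recovered read counts, from the deposited CPM, went into edgeR 4.0.16 and DESeq2 1.42.0. Other alternatives were quantile normalization, median centring, other filters and pseudocounts, limma without trend, a threshold of 0.01 and each library or pair left out. Scripts were tested on simulated data.

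Members and lists were chosen with earlier results of these data known. Named were the 10 members, Pvt1, the 2 tested genes of each of the lists around the network with the smallest p, and the 3 genes closest to Myc. Intervals are at 95%. Of the tested markers of other cell types, 5 of 6 macrophage (0 of 6 without replicate 1), 0 of 2 endothelial, 0 of 2 epithelial, 0 of 1 muscle and 1 of 3 neural markers had a log2 fold change above 0.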

Additional observations from a re-analysis of the deposited data

How the results depend on the processing

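Without the replicate block, 0 genes and 0 members were called under all alternatives except DESeq2, which called 1 gene and 0 members. With the replicate block 5 genes were called by limma, 5 by edgeR and 6 by DESeq2, each including 1 member, Myc (log2 fold change 0.67, 0.68 and 0.68), and 0 by limma without trend. With the block and without replicate 1, 2 or 3, between 8 and 160 genes were called (160 without replicate 2), with 1 member each time. Such fits have few libraries left and lean on the variance shared across genes. Myc ranged from 0.59 to 0.71 in them. Over all 22 alternatives Myc lay between 0.59 and 0.79.

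The direction of the other members is not fixed by these data: 25 of 197 comparisons over 8 of 9 members changed sign, all but Mnt. Quantile normalization turned Max to 0.0020 and Mxd4 to 0.013. With single libraries left out, log2 fold changes ran from −0.0435 to 0.0472 for Max, −0.252 to 0.0897 for Mxd1, −0.221 to 0.227 for Mxd3, −0.0602 to 0.0485 for Mxd4, −0.036 to 0.0045 for Mxi1, −0.0895 to 0.0773 for Mlx, −0.0009 to 0.206 for Mlxip and −0.0205 to 0.1999 for Mga. With the replicate block and a pair left out, they ran from −0.0307 to 0.0201 for Max (0.0104 without replicate 3), −0.179 to 0.0307 for Mxd1, −0.0658 to 0.199 for Mxd3 (−0.029 without replicate 3), −0.0161 to 0.0176 for Mxd4, −0.0263 to 0.0058 for Mxi1 and −0.0804 to 0.0812 for Mlx. Among Pvt1, the named list genes and the 3 genes closest to Myc, 8 of 480 comparisons changed sign, all with a library or pair left out. Their ranges were −0.327 to 0.0459 for Mycn, −0.309 to 0.0265 for Mycl (0.0046 with the block and without replicate 2), −0.0029 to 0.143 for Ring1, −0.3703 to 0.0389 for Ndrg2 and −0.0033 to 0.262 for Elovl6, and Ddx4 turned to 0.0337 with the block and without replicate 3. With 3 libraries per guide, the 95% intervals without the block included a ratio of 1 for the 9 members other than Myc, and with it for all of these but Mga.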
